A study of Mus musculus with 4 samples.

Results

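The transcriptome of unscratched wild-type MLE-12 cells was read from 1 of the 4 libraries of the series, as a profile of expression levels across genes. The wild-type unscratched library was chosen by its label and its columns in the deposited count and RPKM (reads per kilobase of transcript and 1000000 reads) tables. It held 26903429 counted reads, and 19005 of the 46078 genes of the count table had at least 1 read in it, of 22921 with a read in any of the 4 libraries. MLE-12 is an immortalised mouse line of alveolar epithelial origin, isolated from lung tumours of mice that carried the SV40 large T antigen under the human surfactant protein C promoter, so every library shares that transgene. The other 3 libraries are wild-type cells 24 h after a scratch, and cells labelled Lingo1 KO, unscratched and 24 h after a scratch. Each condition is 1 stranded mRNA library, the passage of the cultures is not stated in the labels, and no condition has a replicate. Values in the other libraries are set beside those of the unscratched wild-type library and are not compared by a test.

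The alveolar surface of the lung is formed by 2 epithelial cell types. Alveolar type 2 cells make surfactant, the mixture of phospholipids and surfactant proteins that lowers surface tension, and alveolar type 1 cells are the thin cells across which gas is exchanged. Both arise from progenitors that express the transcription factor Nkx2-1, and the pleural surface is covered by a separate lining, the mesothelium. Large T antigen is known to bind p53 and the retinoblastoma protein.

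A gene was counted as expressed at 1 RPKM or more. By this minimum 11150 genes of the table, or 24.2%, and 10551 of the 21519 protein-coding genes, or 49.0%, were expressed in the unscratched wild-type library. A further 7207 protein-coding genes had no read, and 3761 had reads but less than 1 RPKM or no RPKM value. Among the expressed protein-coding genes the median level was 13.2 RPKM, with quartiles of 5.55 and 29.3 RPKM. Of these genes, 4347 lay between 1 and 10 RPKM, 5651 between 10 and 100, 541 between 100 and 1000, and 12 at 1000 or more. The median expressed gene had 1253 reads, which gives a 95% Poisson interval of about 5.58% of the value on either side. For 198 expressed genes the counting interval reached below 1 RPKM, and for 237 genes under 1 RPKM it reached above. H3c3 at 1.00 RPKM and Nhej1 at 1.005 stood just inside the minimum, and Eda2r at 0.999 and Tfap2b at 0.993 just outside it. All intervals here are exact 95% intervals that cover counting error only, since the reads carry no molecular identifiers and a single library shows no variation between cultures.

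**Figure D1:**
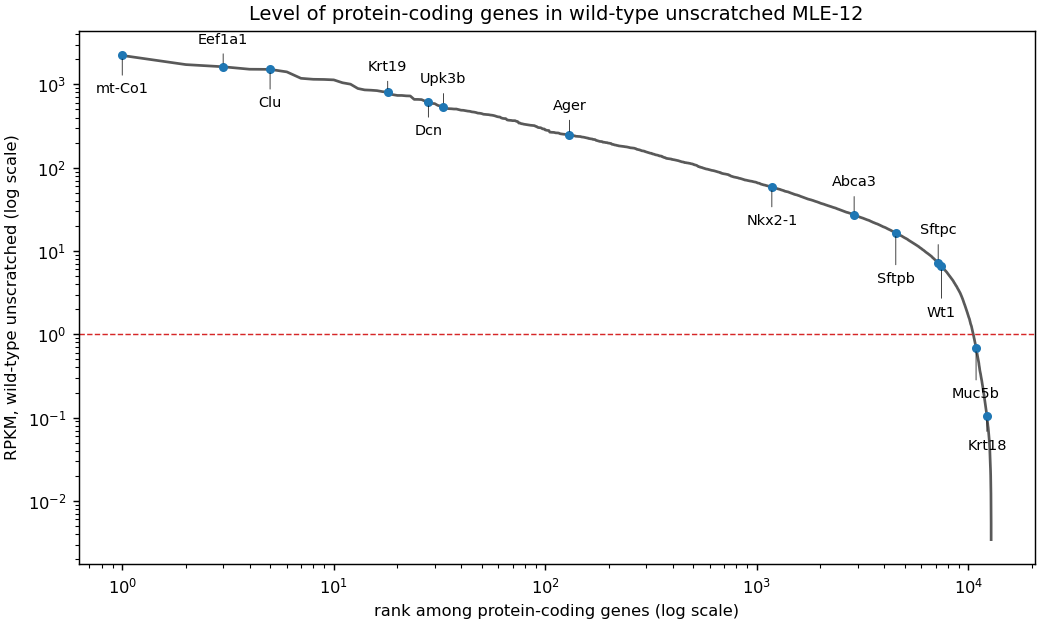
RPKM of each protein-coding gene with a value above 0 in the wild-type unscratched library (y axis, log scale) against its rank (x axis, log scale). Points mark named genes, and the dashed line is the minimum of 1 RPKM. Krt19, Dcn and Upk3b stand among the highest genes, while Sftpb and Sftpc stand at 16.5 and 7.21 RPKM.

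Reads were spread over many genes. The 10 genes with most reads held 3.24% of all reads (95% Clopper-Pearson interval 3.24 to 3.25), the 100 with most reads 13.7% and the 1000 with most reads 45.6%, and 1215 genes together held 50% of the reads. Protein-coding genes took 98.4% of the reads, long intergenic non-coding RNA genes 0.213% and genes annotated as ribosomal RNA 0.603%. On the per-length scale, the 10 highest genes of any type made up 7.83% of the summed RPKM and the 100 highest 20.9%. Among protein-coding genes alone, the 10 highest made up 4.56% of their summed RPKM and the 100 highest 17.9%. The highest entry of any type was Mir6236 at 13067 RPKM, and the ribosomal RNA gene CT010467.1 had no RPKM value.

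The highest protein-coding genes were of mixed roles. The mitochondrially encoded mt-Co1, a subunit of cytochrome c oxidase, led with 2224 RPKM (95% interval 2210 to 2239, 92697 reads), followed by mt-Cytb at 1728 RPKM. Translation elongation factor Eef1a1 stood at 1628 RPKM, mt-Nd1 at 1520 RPKM and clusterin (Clu, chromosome 14, 65968483 to 65981547), a secreted chaperone, at 1514 RPKM. The iron storage chain Ftl1 followed at 1413 RPKM, beta-actin (Actb) at 1183 RPKM and the calcium-binding protein S100a6 at 1151 RPKM. Parathymosin (Ptms, 1146 RPKM), Tpt1 (1133 RPKM), the chaperone Hsp90ab1 (1046 RPKM) and elongation factor Eef2 (1006 RPKM) completed the 12 genes above 1000 RPKM. With RPKM rebuilt from the counts and annotated exonic lengths, 5 of the 12 stayed at 1000 or more, and Clu stood at 799.5, S100a6 at 661 and Tpt1 at 558. The order of these genes therefore depends on the gene length used. On the deposited scale, 3 of these 12 genes were mitochondrially encoded, 2 were elongation factors, and Clu was the highest gene that encodes a secreted protein.

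The remaining places among the 25 highest went to the ribosomal proteins Rps15 (893 RPKM), Rplp0 (859 RPKM), Rplp1 (818 RPKM) and Rpl32 (753 RPKM), the beta-tubulins Tubb5 (851 RPKM) and Tubb4a (736 RPKM), and mt-Nd2 (842 RPKM). They also held the simple epithelial keratin Krt19 (805 RPKM), the caveolar coat protein Cav1 (737 RPKM), the actin-binding peptide Tmsb4x (728 RPKM), Anxa3 (726 RPKM), the protein disulfide isomerase P4hb (661 RPKM) and Lars2 (660 RPKM), a mitochondrial leucyl-tRNA synthetase. Rebuilt on the annotated length, Anxa3 stood at 319, Lars2 at 232 and Tmsb4x at 460.2 RPKM, over 1.5 times lower than the deposited values. In the other 3 libraries, 23, 22 and 22 of these 25 genes were again among the 25 highest, in the order wild-type scratched, KO-labelled unscratched and KO-labelled scratched. Part of this order depends on reads that could come from a near-identical copy. Of the distinct 50-base stretches of their transcripts, 50.9% in Ftl1, 39.4% in Eef1a1, 33.1% in Rplp0, 30.3% in Rps15, 18.7% in Tpt1 and 9.12% in Actb also occur in transcripts of other genes, often processed copies. The exons of Ftl1 also overlap those of another gene over 34.6% of their length. None of the stretches of Clu, Krt19, S100a6 or Ptms did.

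By reads without length scaling the order was different, and 13 of the 25 highest protein-coding genes by RPKM were among the 25 with most reads. The ribosomal RNA gene CT010467.1 had most reads (155187), then the amyloid precursor protein gene App (95990 reads, 436 RPKM), mt-Co1 (92697 reads), Eef2 (83814), Eef1a1 (78759), the matrix proteoglycan decorin (Dcn, 77136 reads, 609 RPKM), the fatty acid desaturase Scd2 (74487 reads, 506 RPKM), Clu (73927), Hsp90ab1 (71123) and Lars2 (69344). App, Dcn and Scd2 stood lower on the per-length scale, where reads are divided by the gene length used.

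The sequences around the annotated starts of the 6 highest genes with an entry in the RefSeq promoter table are shown. For the 4163 genes with several entries, the first was used. Each runs from 100 bases before to 30 bases from the annotated start (RefSeq, GRCm38.p6, the build also called mm10), 5′ to 3′ on the gene's strand. Capitals mark matches, on either strand, to 6 motifs. They are TATAAA, the core of the TATA box, and CCAAT, the CCAAT box. Others are GGGCGG, the core of the Sp1 site, and CACGTG, an E-box. The last are TGACTCA, the AP-1 element, and CCGGAAG, an Ets element.
Eef1a1 (chr9:78481695-78481824, minus strand): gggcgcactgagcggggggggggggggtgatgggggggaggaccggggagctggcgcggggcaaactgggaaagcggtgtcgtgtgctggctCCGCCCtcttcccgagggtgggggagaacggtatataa
Ftl1 (chr7:45459857-45459986, minus strand): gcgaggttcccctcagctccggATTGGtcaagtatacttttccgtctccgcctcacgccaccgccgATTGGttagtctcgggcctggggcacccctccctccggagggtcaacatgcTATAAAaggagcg
S100a6 (chr3:90612794-90612923, plus strand): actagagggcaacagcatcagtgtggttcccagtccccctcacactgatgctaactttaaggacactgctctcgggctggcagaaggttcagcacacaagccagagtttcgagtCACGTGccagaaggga
Ptms (chr6:124917917-124918046, minus strand): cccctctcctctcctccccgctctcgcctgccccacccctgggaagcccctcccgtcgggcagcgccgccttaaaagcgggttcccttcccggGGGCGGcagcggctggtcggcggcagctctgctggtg
Tpt1 (chr14:75845156-75845285, plus strand): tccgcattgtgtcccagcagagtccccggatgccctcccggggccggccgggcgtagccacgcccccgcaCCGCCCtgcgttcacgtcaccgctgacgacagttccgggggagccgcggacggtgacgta
Eef2 (chr10:81176531-81176660, plus strand): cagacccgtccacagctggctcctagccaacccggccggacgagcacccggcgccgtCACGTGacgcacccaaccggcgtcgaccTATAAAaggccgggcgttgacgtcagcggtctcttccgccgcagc

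GGGCGG lay in the windows of Eef1a1, Ptms and Tpt1, on the minus strand in Eef1a1 and Tpt1. TATAAA lay in Ftl1 and Eef2, beginning at +17 and -15 from the annotated start. CACGTG lay in S100a6 and Eef2, and Ftl1 held CCAAT 2 times on the minus strand, printed as ATTGG. Over the 27025 promoters of the table, windows of the same 130 bases held GGGCGG in 28.0%, CCAAT in 22.3%, TATAAA in 6.74%, CCGGAAG in 6.46%, CACGTG in 4.06% and TGACTCA in 2.31%. A match here is a match of letters and describes the window alone. Clu, Actb, Hsp90ab1 and Krt19 have no entry.

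Ribosomal RNA and a few other genes varied together over the 4 libraries, a set chosen after its values were seen. The nuclear ribosomal RNA gene CT010467.1 was counted at 5768 CPM (counts per 1000000 reads) in the unscratched wild-type library, at 1161 CPM in the scratched wild-type library, and at 1839 and 6822 CPM in the KO-labelled unscratched and scratched libraries. Mir6236, whose annotated hairpin was the highest gene of any type at 13067 RPKM, had 6166, 7166 and 13900 RPKM in the other 3 libraries in the same order. The antisense gene Gm15564 had 1220, 604, 716 and 1334 RPKM, and the mitochondrial ribosomal RNA mt-Rnr1 402, 152, 230 and 398 RPKM. In each of these genes the unscratched wild-type library and the scratched KO-labelled library were high and the other libraries low, so the order follows neither the scratch nor the label. Lars2 had 660, 321, 365 and 727 RPKM and followed the same order. Of its stretches, 0.196% occur in another gene, where only exact copies in annotated transcripts were searched. The summed RPKM of the replication-dependent histone genes, whose mRNAs lack a poly(A) tail, was 37.9, 10.8, 20.1 and 41.5 in the 4 libraries. The part of library preparation in these levels was not tested.

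Of the 13 protein genes of mitochondrial DNA, 7 were counted and 6 (mt-Co2, mt-Atp8, mt-Atp6, mt-Co3, mt-Nd3 and mt-Nd4l) had 0 reads in all 4 libraries. These genes are adjacent, from 7013 to 10173 of the mitochondrial sequence, between mt-Co1 and mt-Nd4. All distinct 50-base stretches of mt-Co2, 99.9% of mt-Co3, 99.5% of mt-Atp6, 98.8% of mt-Nd4l and 98.0% of mt-Nd3 also occur in a transcript of another gene, and none of mt-Atp8 do. Among the counted genes this share was 62.2% in mt-Nd4 and 51.1% in mt-Co1, so the level of mt-Co1 is uncertain, and it was 0 in mt-Cytb, mt-Nd1 and mt-Nd6. The 7 counted genes ranged from 468 RPKM in mt-Nd5 to 2224 RPKM in mt-Co1 and held 0.962% of the reads. Whether the 0 counts reflect absent transcripts was not tested.

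Lung epithelial transcription factors were present in part. Of the 46 factors on the list, 23 were expressed (50%, beside 49.0% of all protein-coding genes), 14 had reads below the minimum and 9 had none. The Kruppel-like factor Klf4 was highest at 266 RPKM, followed by Hopx, a homeodomain protein of type 1 cells, at 71.1 RPKM, and Gata6, a factor of lung endoderm, at 65.7 RPKM. Nkx2-1, the defining factor of lung epithelium, stood at 58.4 RPKM (4427 reads) and at 45.6, 48.9 and 46.7 RPKM in the wild-type scratched, KO-labelled unscratched and KO-labelled scratched libraries. Its level was the highest in the unscratched wild-type library, but all 4 values lay far above the minimum. Nfib had 51.6 RPKM and the endodermal pioneer factor Foxa2 46.3 RPKM, with Foxa1 at 25.9 RPKM. The airway factor Sox2 had 0 reads, as did the epithelial factors Elf5 and Ehf, and Sox17, Hnf4a, Irx1 and Mycn. The distal tip factor Sox9 stood at 9.22 RPKM. The basal cell factor Trp63 had 30 reads, the ciliated factor Foxj1 58 and the epithelial factor Grhl2 37, all under 1 RPKM.

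Of 25 alveolar type 2 genes, 8 (32%, beside 49.0% of all protein-coding genes) were expressed, and the highest of them serve lipid synthesis. At 0.5 RPKM the count was 10, and at 1 TPM (transcripts per 1000000, a scale on which lower levels pass) it was 12, beside 53.4% of all protein-coding genes. The desaturase Scd1 stood at 114 RPKM, fatty acid synthase Fasn at 77.7 RPKM, and Lpcat1, which remodels surfactant phosphatidylcholine, at 39.3 RPKM. Abca3, the lipid transporter of lamellar bodies, stood at 27.2 RPKM and the protease Ctsh at 18.8 RPKM. Surfactant protein B (Sftpb, chromosome 6, 72304610 to 72314371) had 689 reads and 16.5 RPKM (15.3 to 17.8), and surfactant protein C (Sftpc, chromosome 14, 70520949 to 70524081) 154 reads and 7.21 RPKM (6.12 to 8.44). Sftpb thus stood above the median expressed gene at 13.2 RPKM, and Sftpc below it. In bulk RNA, fewer cells of a type and less RNA per cell cannot be told apart. In the wild-type scratched, KO-labelled unscratched and KO-labelled scratched libraries, Sftpb stood at 14.8, 69.0 and 60.2 RPKM and Sftpc at 8.10, 26.0 and 24.9 RPKM. Both wild-type libraries were low for these genes and both KO-labelled libraries high. Sftpa1, Sftpd, the phosphate transporter Slc34a2, complement Hc and Chil1 had 0 reads, under the floor of 3 reads or 0.112 CPM. Lamp3, a membrane protein of lamellar bodies, had 7 reads.

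Most alveolar type 1 genes were expressed, with 22 of 27 (81.5%, beside 49.0% of all protein-coding genes) at 1 RPKM or more and a summed level of 3440 RPKM, beside 313 RPKM for the type 2 list. S100a6 (1151 RPKM) and Cav1 (737 RPKM) led the list, and both are also made by many other cell types. Gprc5a followed at 337 RPKM. Ager, the receptor for advanced glycation end products and a type 1 marker, had 12486 reads and 247 RPKM (242 to 251), with 243, 238 and 211 RPKM in the wild-type scratched, KO-labelled unscratched and KO-labelled scratched libraries. Cav2 stood at 207 RPKM, podoplanin (Pdpn) at 154 RPKM, Emp2 at 130 RPKM and the water channel Aqp5 at 62.6 RPKM. The alveolar claudin Cldn18 had 0 reads, and Akap5 (25 reads) and the sodium channel subunit Scnn1g (11 reads) were under 1 RPKM. Ager was thus the 133rd highest gene with an RPKM value, while Sftpc ranked 7316th.

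Genes known as mesothelial markers were expressed in 7 of 10 cases (70%, beside 49.0% of all protein-coding genes). At a minimum of 5 RPKM the count was 5 of 10, beside 37.9% of all protein-coding genes. Krt19, a keratin of simple epithelia that is also on the transitional epithelial list below, stood at 805 RPKM. It made up 47.1% of the summed level of the mesothelial list. The uroplakin Upk3b stood at 542 RPKM (51642 reads), Upk1b at 176 RPKM and mesothelin (Msln) at 174 RPKM. The mesothelial transcription factor Wt1 stood at 6.54 RPKM (545 reads), Lrrn4 at 1.88 RPKM and Gpm6a at 1.46 RPKM. Rspo1 and Cdh11 had 0 reads, and Krt18, also on both lists, was under the minimum. Upk3b had 543, 519 and 524 RPKM, Msln 197, 175 and 185 RPKM, and Wt1 6.45, 7.48 and 7.04 RPKM in the wild-type scratched, KO-labelled unscratched and KO-labelled scratched libraries. The summed level of the list ranged from 1608 to 1737 RPKM over the 4 libraries. Upk3b alone was the 35th highest gene with an RPKM value. The label calls the line alveolar epithelial. Of the lung epithelial genes, Nkx2-1, Ager, Abca3, Lpcat1, Sftpb and Sftpc were expressed, whereas the type 2 markers Sftpa1, Sftpd and Slc34a2 were at 0.

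The same windows are shown for 4 genes that mark these identities: lung epithelium, type 2, type 1 and mesothelium. They were chosen after their values were seen, and capitals mark the same 6 motifs.
Nkx2-1 (chr12:56536879-56537008, minus strand): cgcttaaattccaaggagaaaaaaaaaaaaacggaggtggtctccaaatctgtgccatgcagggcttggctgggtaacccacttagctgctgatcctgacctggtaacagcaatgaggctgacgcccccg
Sftpb (chr6:72304510-72304639, plus strand): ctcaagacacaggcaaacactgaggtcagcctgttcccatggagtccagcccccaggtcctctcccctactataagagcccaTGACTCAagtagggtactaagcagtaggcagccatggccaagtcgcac
Ager (chr17:34597750-34597879, plus strand): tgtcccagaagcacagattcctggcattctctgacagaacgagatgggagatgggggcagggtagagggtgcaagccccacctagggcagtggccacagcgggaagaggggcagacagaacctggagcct
Upk3b (chr5:136038396-136038525, plus strand): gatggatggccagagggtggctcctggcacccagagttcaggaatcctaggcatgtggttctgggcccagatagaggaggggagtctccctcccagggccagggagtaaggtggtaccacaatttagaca

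TGACTCA lay in the Sftpb window, and none of the 6 motifs lay in the windows of Nkx2-1, Ager or Upk3b. Sftpc, Msln and Dcn have no entry.

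**Figure D2:**
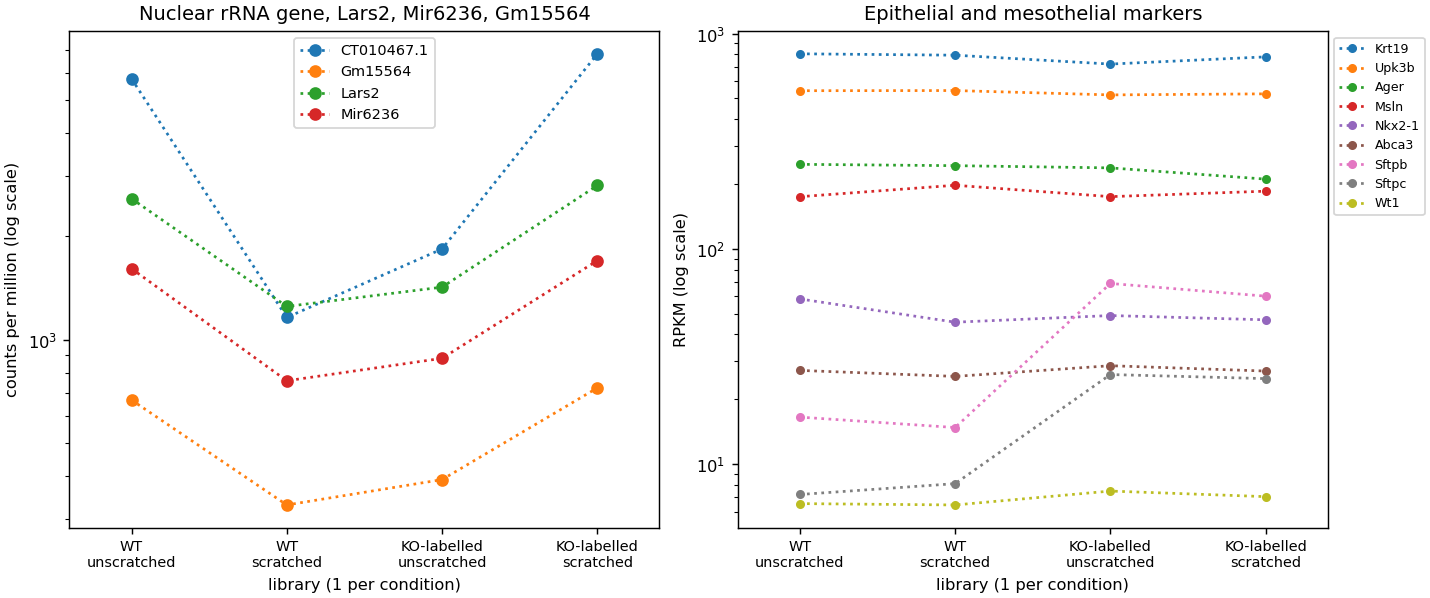
Left: CPM (log scale) of the ribosomal RNA gene CT010467.1, Lars2, Mir6236 and Gm15564 in each of the 4 libraries (x axis, 1 library per condition). Right: RPKM (log scale) of epithelial and mesothelial markers in the same libraries. Points are single libraries and dotted lines only guide the eye; the genes on the left are high in the first and last library, while Krt19, Upk3b, Ager and Msln stay near one level.

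Markers of airway cells were mostly absent. The club cell list had 4 of 14 members expressed, led by the retinal dehydrogenase Aldh1a1 at 69.4 RPKM and Gsto1 at 47.1 RPKM, while the secretoglobins Scgb1a1 and Scgb3a2, Cyp2f2, Pigr and Hp had 0 reads. Of 11 goblet genes, 1 was expressed (Creb3l1, 1.24 RPKM), and the gel-forming mucin Muc5b had 276 reads but stayed under 1 RPKM. Of 17 ciliated genes, 3 were expressed, of which Tubb4b (173 RPKM) is a tubulin of many cell types. The other 2, Tppp3 and Dnah11, stood at 1.67 and 1.33 RPKM, and 8 members including Hydin and Tekt1 had 0 reads. The basal list had 8 of 15 expressed, led by Pdpn and by Krt14 at 25.4 RPKM, while its keratins Krt5 and Krt17 had 0 reads. The neuroendocrine and tuft list had 3 of 15, with Uchl1 at 47.8 RPKM and the tuft factor Pou2f3 at 5.03 RPKM. Calca, Chga and Syp had 0 reads. These shares lie under the 49.0% of all protein-coding genes except in the basal list, at 53.3%. At a minimum of 5 RPKM the basal list had 4 of 15 members, beside 37.9% of all protein-coding genes. The ciliated list had 6 of 17 members at 0.5 RPKM and 1 at 5 RPKM, and the goblet list 2 and 0 of 11.

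The transitional epithelial list, of genes known from Krt8-positive cells of injured alveoli, had 15 of 22 members (68.2%, beside 49.0%) expressed in these unscratched cells. Clu and Krt19 led it, then galectin-3 (Lgals3, 129 RPKM), the TWEAK receptor Tnfrsf12a (128 RPKM) and Krt8 (127 RPKM). Ccn2 stood at 70.0 RPKM and Fn1 at 47.0 RPKM. Cldn4 had 0 reads and Krt18 had 4. Areg (29 reads) and Itgb6 (36 reads) were under 1 RPKM.

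Among other lineages, mesenchymal genes were split, with 36.8% of the list expressed beside 49.0% of all protein-coding genes. Of 38 fibroblast and smooth muscle genes, 14 were expressed, with Dcn at 609 RPKM, vimentin (Vim) at 247 RPKM, fibulin Fbln1 at 89.9 RPKM, N-cadherin (Cdh2) at 15.8 RPKM and nephronectin (Npnt) at 11.1 RPKM. The type I collagen chain Col1a1 stood at 3.60 RPKM. Col1a2 and Pdgfrb had 0 reads, the smooth muscle actin Acta2 and Col3a1 had 1 each, and Bgn had 8. The list's summed level was between 991 and 1077 RPKM in the 4 libraries, most of it from Dcn.

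Few endothelial, blood, nerve and other tissue markers were expressed, beside 49.0% of all protein-coding genes. The shares were 15% of endothelial, 3.45% of leukocyte, 24% of neuronal and glial, and 8.70% of red cell, liver and muscle genes. Of 20 endothelial genes, 3 were expressed, led by the angiopoietin receptor Tek at 47.2 RPKM, and 10 had no read, including Cdh5 and Tie1. Of 29 leukocyte genes, Cd68 alone was expressed, at 1.45 RPKM, and 21 had no read, including Ptprc. The neuronal and glial list had 6 of 25 expressed, led by Map2 at 46.9 RPKM, Lingo1 at 12.8 RPKM and Mbp at 11.8 RPKM, and 12 members had no read. Of 23 red cell, liver and muscle genes, Myl7 (21.5 RPKM) and Tnnt2 (3.34 RPKM) were expressed and 18 had no read.

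**Figure D3:**
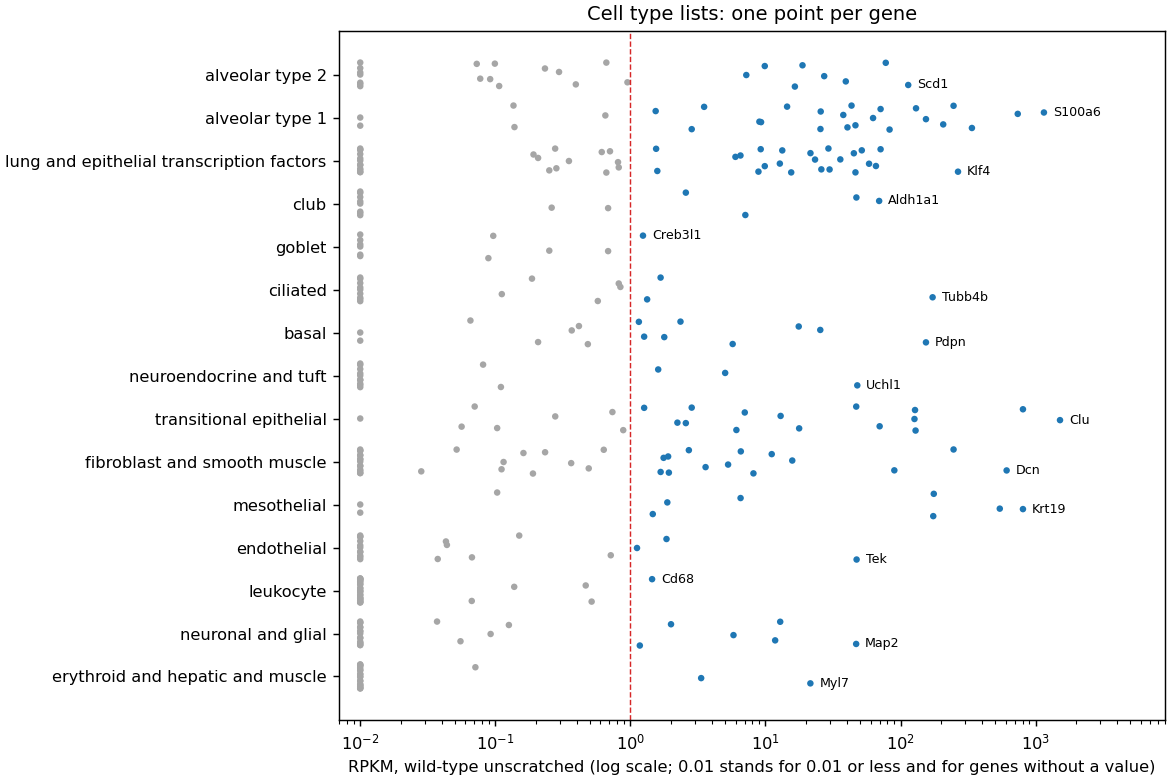
RPKM in the wild-type unscratched library (x axis, log scale) of every gene on the 15 cell type lists (y axis). Blue points are at 1 RPKM or more, grey points below it, points at 0.01 stand for 0.01 or less or no value, and the highest gene of each list is named; 22 of 27 type 1 genes but 8 of 25 type 2 genes lie right of the dashed line.

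Keratins were few. Of 53 keratin genes, 7 (13.2%, beside 49.0% of all protein-coding genes) were expressed. At a minimum of 5 RPKM the count was 4, beside 37.9% of all protein-coding genes. The 7 were Krt19, Krt8, Krt14, Krt80 (17.5 RPKM), Krt7 (2.84 RPKM), Krt10 (1.47 RPKM) and Krt13 (1.10 RPKM). Keratins form filaments from a type I and a type II chain, and Krt18 is the usual type I partner of Krt8 in simple epithelia. Krt18 had 4 reads (0.103 RPKM, 0.0281 to 0.264) and stayed at 0.145 to 0.199 RPKM in the other libraries, whereas Krt19, another type I keratin, stood at 805 RPKM. Of the Krt18 stretches, 0.720% occur in another gene, and its exons overlap no other gene. Only exact copies in annotated transcripts were searched, so whether reads of Krt18 were lost to other copies was not tested. For Krt8, 26.9% of the stretches occur elsewhere, so its level is less certain.

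Junction genes combined a strong adherens set with few claudins. In the claudin and cadherin families 8% and 17.4% were expressed, against 76.9% of the junction list and 49.0% of all protein-coding genes. Of 39 junction genes, 30 (76.9%) were expressed, led by beta-catenin (Ctnnb1, 336 RPKM), plakoglobin (Jup, 243 RPKM), alpha-catenin (Ctnna1, 225 RPKM), the junctional adhesion molecule F11r (189 RPKM) and E-cadherin (Cdh1, 178 RPKM). Epcam, a pan-epithelial adhesion molecule, stood at 2.67 RPKM. In the cadherin family, 4 of 23 were expressed, with Cdh2 at 15.8 RPKM and Cdh24 at 9.38 RPKM. Of 25 claudins, which seal tight junctions, 2 were expressed, Cldn12 at 15.8 RPKM and Cldn15 at 1.19 RPKM. Under other minimums the count of claudins ranged from 1 at 5 RPKM to 6 at 1 TPM. No mucin of 14 reached 1 RPKM, and 2 reached 1 CPM.

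The basement membrane was represented by type IV collagen and laminin chains. Beside 49.0% of all protein-coding genes, 36.4% of collagen genes, 63.6% of laminin chains and 38.5% of integrin chains were expressed. Small leucine-rich proteoglycans and matrix metalloproteinases had 27.3% each. Of 44 collagen genes, 16 were expressed, and the 3 highest were type IV chains: Col4a5 at 224 RPKM, Col4a1 at 115 RPKM and Col4a4 at 85.9 RPKM. Of 11 laminin chains, 7 were expressed, among them Lamb2 (195 RPKM) and Lamc1 (82.8 RPKM). The highest integrin chains were Itgb1 (292 RPKM), Itgb5 (97.7 RPKM) and Itga3 (66.3 RPKM), and 10 of 26 chains were expressed. Among small leucine-rich proteoglycans, 3 of 11 were expressed, Dcn, Prelp (60.2 RPKM) and Fmod (45.0 RPKM). Syndecans Sdc4 and Sdc1 stood at 126 and 89.5 RPKM. Matrix metalloproteinases were low, with 6 of 22 expressed and Mmp11 highest at 28.3 RPKM, beside their inhibitors Timp2 at 506 RPKM and Timp3 at 82.9 RPKM. Cathepsins of the lysosome were led by Ctsd (187 RPKM), Ctsz (115 RPKM) and Ctsb (113 RPKM).

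Annexins and S100 proteins bind calcium, and many of them bind membranes. Their expressed shares were 81.8% and 56.25%, beside 49.0% of all protein-coding genes. Serpins had 16.4%, tubulins 66.7%, actins 33.3% and myosin heavy chains 21.4%. Annexins had 9 of 11 expressed, with Anxa3 at 726 RPKM, Anxa1 at 283 RPKM and Anxa2 at 261 RPKM. S100 proteins had 9 of 16, with S100a6, S100a10 at 367 RPKM and S100a11 at 228 RPKM. Of 61 serpins, 10 were expressed, led by the collagen chaperone Serpinh1 (185 RPKM) and Serpinb1a (172 RPKM). In the cytoskeleton, of 18 tubulins 12 were expressed, with Tubb5, Tubb4a and Tubb4b highest, of 6 actins Actb and Actg1 (97.3 RPKM), and of 14 myosin heavy chains Myh9 (168 RPKM), Myh10 (19.5 RPKM) and Myh14 (13.6 RPKM). Tubb4a, best known from the nervous system, shares 0.184% of its stretches with other genes.

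Ribosomal protein, proteasome, aminoacyl-tRNA synthetase, translation factor and peroxiredoxin families were nearly complete, with at least 89.7% of each expressed. The share of all protein-coding genes was 49.0%. Other housekeeping families had lower shares, with 78.6% of heat shock proteins, 75% of chaperonin subunits and 69.2% of lysosomal and vacuolar ATPase subunits. Cytochrome P450s had 9.18%, Hox genes 28.2% and replication-dependent histones 24.2%. Cytosolic ribosomal proteins had 82 of 86 members expressed with a median of 183 RPKM, and mitochondrial ribosomal proteins 76 of 78 with a median of 14.0 RPKM. Proteasome subunits and assembly factors had 47 of 49, aminoacyl-tRNA synthetases 33 of 34, translation factors and their regulators 61 of 68, and peroxiredoxins 6 of 6, led by Prdx1 at 407 RPKM. At the other end, none of the 1020 olfactory receptors was expressed, and cytochrome P450s had 9 of 98, led by Cyp1b1 (52.1 RPKM), Cyp20a1 (13.9 RPKM) and Cyp26b1 (10.2 RPKM). Among 368 Slc transporters, 173 were expressed, close to the background of 49.0%, led by Slc25a4 (181 RPKM), Slc6a6 (166 RPKM) and Slc25a39 (151 RPKM). Among Hox genes, 11 of 39 were expressed, led by Hoxa10 (23.4 RPKM), Hoxa7 (12.4 RPKM) and Hoxb9 (8.83 RPKM). For replication-dependent histones, 15 of 62 reached 1 RPKM, led by H1f2 at 4.49 RPKM, against 24 at 0.5 RPKM, 31 at 1 TPM and 0 at 5 RPKM, and in these genes a median of 53% of the stretches occur in another gene.

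**Figure D4:**
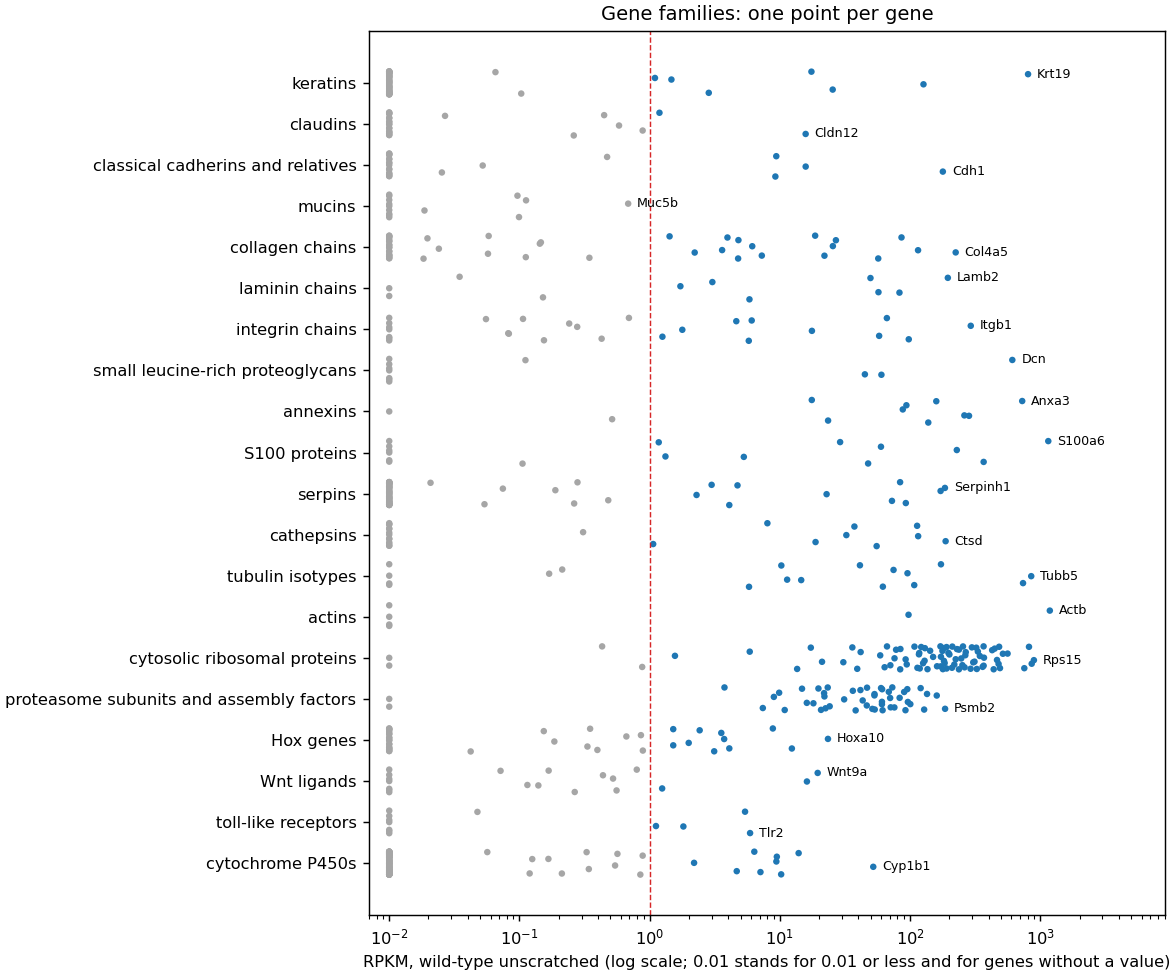
RPKM in the wild-type unscratched library (x axis, log scale) of every member of 20 gene families (y axis). Blue points are at 1 RPKM or more, grey points below it, and points at 0.01 stand for 0.01 or less or no value; ribosomal proteins sit far to the right, while claudins and mucins hold 2 and 0 expressed members.

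Cell cycle genes were high throughout. All 31 proliferation genes on the list were expressed, beside 49.0% of all protein-coding genes. Their median was 87.8 RPKM, beside 13.2 RPKM for all expressed protein-coding genes. The topoisomerase Top2a stood at 263 RPKM, the replicative helicase subunit Mcm2 at 233 RPKM, H2az1 at 231 RPKM, Pcna at 222 RPKM and Stmn1 at 201 RPKM. Of 36 genes of the p53 and Rb pathways, 35 were expressed (97.2%, beside 49.0% of all protein-coding genes). The cyclin-dependent kinase inhibitor locus Cdkn2a stood at 267 RPKM (260 to 273), with 215, 209 and 199 RPKM in the wild-type scratched, KO-labelled unscratched and KO-labelled scratched libraries. Cdkn2c stood at 196 RPKM, Cdk4 at 188 RPKM, Ccnd1 at 164 RPKM and Cdkn1b at 121 RPKM. Trp53 itself stood at 39.8 RPKM and Rb1 at 14.8 RPKM, and the p53 target Cdkn1a at 2.23 RPKM (125 reads). Cdkn2a was thus the 109th highest gene while Cdkn1a, another inhibitor, ranked 9968th.

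Most lipid synthesis genes and most glycolytic genes were expressed, at 91.4% and 68.6% beside 49.0% of all protein-coding genes. Of 35 genes of surfactant lipid and fatty acid synthesis, 32 (91.4%) were expressed, led by Scd2 (506 RPKM), the sterol sensor Insig1 (200 RPKM), the sterol regulator Srebf2 (169 RPKM), the desaturase Fads1 (138 RPKM) and Scd1. Of 35 glycolysis genes, 24 were expressed, led by Pkm (450 RPKM), Tpi1 (323 RPKM), Ldha (150 RPKM), Gapdh (147 RPKM) and Aldoa (141 RPKM). In Gapdh, 24.7% of the stretches occur in other genes, so its level is uncertain. The hexokinase Hk2 was under the minimum at 0.504 RPKM (75 reads) and stood at 1.21, 1.82 and 2.53 RPKM in the wild-type scratched, KO-labelled unscratched and KO-labelled scratched libraries.

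Receptors and ligands of wound signalling were each expressed in part, at 62.5% and 35.3% beside 49.0% of all protein-coding genes. Wnt ligands had 15.8%, frizzled receptors 70%, ephrins and their receptors 54.55% and semaphorins 65%. The AP-1 genes had 85.7%, and the H2 genes with B2m and the Tap genes 51.6%, near the background. Of 56 receptors for growth factors and wound signals, 35 were expressed, led by the tumour necrosis factor receptors Tnfrsf1a (195 RPKM) and Tnfrsf1b (84.5 RPKM), Tgfbr2 (82.9 RPKM), the collagen receptor Ddr1 (73.7 RPKM) and the thrombin receptor F2r (49.8 RPKM). Egfr was just under the minimum at 0.959 RPKM, with an interval of 0.847 to 1.08, while its relative Erbb2 stood at 46.0 RPKM. Erbb4, Fgfr1, Pdgfrb and S1pr1 had 0 reads. Pdgfrb had 1 read in the wild-type scratched library and 67 and 135 reads in the KO-labelled unscratched and scratched libraries. Of 68 secreted growth factors and cytokines, 24 were expressed, led by Vegfb (68.3 RPKM), Tgfb3 (44.1 RPKM), Mif (41.3 RPKM), Tgfb2 (27.3 RPKM) and Pdgfa (26.3 RPKM). Wnt ligands had 3 of 19 expressed, led by Wnt9a (19.5 RPKM) and Wnt7a (16.1 RPKM), with 6 at a minimum of 0.5 RPKM and 7 at 1 CPM, and their frizzled receptors 7 of 10, led by Fzd7 (20.7 RPKM). Ephrins and their receptors had 12 of 22, led by Efnb2 at 92.2 RPKM, and semaphorins 13 of 20, led by Sema4g at 60.9 RPKM. The AP-1 factors Jund (141 RPKM), Junb (98.6 RPKM) and Jun (63.1 RPKM) were present in unscratched cells, and 6 of 7 members were expressed. Of the H2 genes with B2m and the Tap genes, 16 of 31 were expressed, led by B2m (423 RPKM), H2-D1 (418 RPKM) and H2-K1 (302 RPKM), the class I light and heavy chains.

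Lingo1, the leucine-rich repeat membrane protein that the KO label names, stood at 12.8 RPKM (12.1 to 13.6, 1257 reads, chromosome 9, 56618475 to 56796468, minus strand). It had 11.8, 11.4 and 11.4 RPKM in the wild-type scratched, KO-labelled unscratched and KO-labelled scratched libraries, so the libraries labelled KO were not without its transcript. Of the 26 genes of the LINGO and Nogo receptor group, 12 (46.15%, beside 49.0% of all protein-coding genes) were expressed. The highest were App (436 RPKM), Arhgdia (260 RPKM), Wnk1 (96.5 RPKM), Rhoa (61.5 RPKM) and Rock2 (48.5 RPKM). Rtn4, which encodes the Nogo ligand, stood at 34.3 RPKM. Its receptor gene Rtn4r had 5 reads, and the paralogs Lingo2 and Lingo3 had 0.

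On the sex chromosomes, Xist, the RNA of the inactive X, had 11400 reads and 23.6 RPKM, while the Y genes Ddx3y, Uty, Kdm5d and Eif2s3y had 0 reads. Of 183 protein-coding genes on chromosome Y, 1 was expressed, at 7.03 RPKM, and all 183 together had 636 reads. Of 942 protein-coding genes on chromosome X, 36.3% were expressed, below every autosome, of which chromosome 8 had the highest share, 58.3%. Among autosomes, the median expressed gene was highest on chromosome 6, at 19.2 RPKM, and lowest on chromosome 13, at 8.71 RPKM.

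Transcript length differed between level classes. The 500 highest protein-coding genes had a median exonic length of 2755 bases and 7.5 exon blocks, against 4694 bases and 10 blocks in the other expressed genes, 3528 bases in genes with reads under 1 RPKM and 2160 bases in genes without a read, as a description in which RPKM itself is scaled by length. Promoter entries were found for 80.2% of the 500 highest and 81.4% of the other expressed genes. The 300 bases around the start held 62.0% and 61.7% G and C, TATAAA lay in 10.7% and 6.12%, and GGGCGG in 71.3% and 67.9%, beside 14.2% and 35.9% of all 27025 promoters. The promoter check was void for genes under 1 RPKM and genes without a read, since only 73.5% and 74.9% of them had an entry.

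Levels were close to those of the other 3 libraries. Across the 14683 genes with RPKM values, Spearman's rho with the unscratched wild-type library was 0.995 for wild-type scratched, 0.992 for KO-labelled unscratched and 0.992 for KO-labelled scratched cells, as a description across genes, which are not independent replicates. Of the protein-coding genes, 10335 were expressed in all 4 libraries. There were 47 at 1 RPKM or more in the unscratched wild-type library and below it in the other 3, none above the 2.12 RPKM of the neuropeptide Npb, followed by Nme2 (1.47 RPKM), Sox8 (1.43 RPKM), Sumo2 (1.41 RPKM) and Slc7a3 (1.36 RPKM). Exons of Nme2 overlap those of another gene over 48.9% of their length. A further 20 were under 1 RPKM here and expressed in the other 3, with Hk2 the farthest from the minimum.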

How the data were processed

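Stranded mRNA libraries of MLE-12 cells, 4 in all, 1 per condition, was read from 2 tables. Raw counts were deposited for 46078 Ensembl genes, and RPKM values, scaled by the authors to length and library size, for 14844 of them, 161 without a value. The build mm10 and the tools STAR 2.7.9a, Trimmomatic 0.39, edgeR 3.32.1 and HTSeq 0.11.3 are named, without their roles, per the submitters' processing notes; annotation release and counting strand: not given in the sources used here. Overlapping and antisense genes are therefore uncertain. Every RPKM row had at least 12 reads summed over the 4 libraries. Columns were matched by genotype and condition letter, and N was taken to mean unscratched, the one condition left by the labels.

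Levels between genes were compared on the deposited RPKM. Counting intervals were exact Poisson (levels) and Clopper-Pearson (shares). The code of the Poisson intervals alone was run on simulated Poisson counts, which cannot show how real libraries vary. A floor of 3 counts equals 0.112 CPM (counts per 1000000 reads). Symbols, positions and types came from GENCODE vM21 of the same build (45143 identifiers matched). No test between conditions was made, because each has 1 library. Genes named were the 25 highest protein-coding genes, the 10 with most reads, the 5 highest and the absent members of each list, the 3 highest of each family and Lingo1, with others added after their values were seen; a few genes under this rule are not reported here. Members and lists were chosen with earlier results of these data known, and several family definitions were corrected after values were seen. Python 3.11.15, pandas 2.3.3, scipy 1.17.1, matplotlib 3.10.9, R 4.3.3 and edgeR 4.0.16 were used.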

Additional observations from a re-analysis of the deposited data

Results flagged for a closer look

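The count table holds 935 identifiers that are not in the annotation used here, and they took 19246 reads (0.0715% of the library). They entered the totals but no list, since the annotation gives them no name or position.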

How the results depend on the processing

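No paired analysis was possible because each condition has 1 library and no test was made. With 0.5 or 5 RPKM, 1 TPM, 1 CPM, or RPKM rebuilt for every gene as the minimum, 8325 to 13209 genes and 8162 to 11485 protein-coding genes were expressed, each within 1.5 times the main count. The 10 genes with most reads held 2.96% of protein-coding reads and 3.18% of reads outside mitochondrial genes, and the 100 with most reads 13.3% and 13.4%. The 10 highest genes made up 10.02% of the summed level as TPM and 7.38% without mitochondrial genes, and the 100 highest 23.7% and 19.7%. A TMM factor scales all genes of a library alike and so cannot change a share. Of 75 lists, 17 counts moved by over 1.5 times at 5 RPKM, 8 at 0.5 RPKM, 11 with TPM and 7 with CPM, among them claudins, Wnt ligands, ciliated and goblet genes. A level of 1 TPM corresponded to a median of 0.32 RPKM, so more genes pass it. Rebuilt from counts and annotated exonic lengths, 67 of 267 named genes were over 1.5 times lower than the deposited RPKM (the largest ratio was 2.84, in Lars2). These include Wt1 (3.27 RPKM), Aldh1a1 (33.2), Map2 (17.9), Pkm (219.6), Jup (121) and Top2a (153). The endothelial gene Flt1 (0.947) and the tuft cell gene Dclk1 (0.838) fell under 1 RPKM. Of the 25 highest genes by RPKM, 22 were again among the 25 highest by TPM. At 26903429 reads, levels near 1 RPKM rest on about 93 reads at the median length.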
